A study of Mus musculus with 8 samples.

Results

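Casp9 and 4 genes that act with it in the apoptosome pathway, Apaf1, Cycs, Xiap and Diablo, were followed in spleens of Yaa mutant and wild-type males. Yaa is a mutant Y chromosome known to carry a copied segment of the distal X chromosome that includes Tlr7, and it speeds autoimmune disease on susceptible backgrounds. These 5 of 18193 named genes were read through every probe set that the platform annotation maps to exactly 1 of their symbols, 18 of 45037 probe sets on the array other than controls: 3 of Casp9, 2 of Apaf1, 4 of Cycs, 7 of Xiap and 2 of Diablo. Casp9 was chosen by its signal difference between Yaa and wild type in these same arrays, so its values are given as a description with no test. The partners were chosen for their role, but with earlier results of these data known.

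The wild-type group held 4 C57Bl/6J males and the Yaa group 4 samples of B6.SB-Yaa/J males, all at 8 weeks of age, with 1 array of total RNA per sample. By the design text each sample was 1 spleen, except Yaa 3, which pooled 2; the source label of Yaa 2 also speaks of males in the plural. Red cells were lysed before RNA was extracted, so the samples are mixtures of the remaining spleen cells, in which fewer cells of a type cannot be told apart from less RNA per cell. The labels name no treatment. The strains may differ outside the Y chromosome, which was not analysed here.

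In the mitochondrial pathway of cell death, cytochrome c, the product of Cycs, leaves mitochondria and binds Apaf1. Apaf1 then assembles into a wheel-shaped complex, the apoptosome, that recruits and activates the initiator caspase encoded by Casp9, which in turn cleaves the effector caspases. Xiap binds and blocks caspase-9 and the effector caspases, and Diablo (also called Smac), released from the same mitochondria, displaces Xiap. In the immune system this pathway is known for removing lymphocytes that lack survival signals.

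Casp9 lies on mouse chromosome 4, and the sequence shown is the 250 bases before its start in RefSeq (GRCm38.p6, plus strand, chr4:141793362-141793611), printed because this is the gene the results turn on. Capitals mark the GC box, GGGCGG, searched on both strands.
Casp9: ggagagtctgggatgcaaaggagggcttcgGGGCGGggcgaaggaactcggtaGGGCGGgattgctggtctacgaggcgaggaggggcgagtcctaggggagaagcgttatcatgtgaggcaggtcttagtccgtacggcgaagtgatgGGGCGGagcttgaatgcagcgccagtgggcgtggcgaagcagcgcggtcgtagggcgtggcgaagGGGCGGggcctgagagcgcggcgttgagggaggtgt
The window held 4 GC boxes, all on the plus strand, and a GC box was present in 32.7% of the 32851 RefSeq promoter windows of the same length. It held 25 CG pairs, against a median of 6 over all windows. Neither TATAAA, found in 12.4% of windows, nor CCAAT, found in 33.8%, was in it on either strand. Casp9 had 1 listed start and Xiap 3. The Cycs window held 1 copy of the cAMP response element TGACGTCA, which 1.55% of windows hold.

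Signals are the deposited MAS5 intensities after quantile normalization across the 8 arrays, and differences are Yaa minus wild type on the scale of log2(signal + 16), on which changes in dim probe sets come out too small. Probe sets differ in how well they bind their target, so levels are compared between arrays and not between probe sets. A filter kept probe sets above the median of the mean log2 signal, and 13 of the 18 members passed it.

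Markers of cell types set 2 arrays, Yaa 2 and Yaa 3, apart. Transcripts of red cell precursors were among the brightest in spite of the lysis, with a mean signal in wild type of 10670 for Slc4a1, the anion exchanger of red cells, and of 8916 for Alas2, an enzyme of haem synthesis. The mean log2 signal of 5 tested erythroid markers of 6 was 12.21 to 12.68 in wild type, 10.64 in Yaa 2 and 12.20 to 12.70 in the other Yaa arrays. For 7 of 8 B cell markers, Cd79a and Ms4a1 among them, it was 10.24 to 10.61 in wild type, 5.52 in Yaa 3 and 10.15 to 10.83 in the others. For 7 of 8 T cell markers it was 8.29 to 8.71 in wild type, 5.41 in Yaa 3 and 8.49 to 9.32 in the others. For all 9 neutrophil markers, S100a8 and S100a9 among them, it was 8.39 to 9.18 in wild type and 10.12 to 11.28 in Yaa 1, 3 and 4, while Yaa 2 at 8.82 lay within the wild-type range. For 6 of 7 monocyte and macrophage markers it was 9.03 to 9.14 in wild type and 9.36 to 10.68 in Yaa. The part of these markers in the Casp9 values was not tested. Tlr7, which checks the labels, had signals of 99.5 to 143 in wild type and 181 to 349 in Yaa on the brightest of its 3 tested probe sets. The log2 difference of Tlr7 was 0.91 ± 0.21 (SE; limma adjusted p = 0.553). This copied gene thus did not pass the test applied below to the partners, which limits what a missing call there can show. In the deposited signals Yaa 3, at 116, lay within the wild-type range of 107 to 141, so for that array the check rests on the scaling.

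The 3 Casp9 probe sets did not give the same picture. Probe set 1457816_at was near the bottom of the scale in every wild-type array and clearly above it in every Yaa array. Its signals were 3.10, 2.04, 4.26 and 3.72 in wild type 1 to 4 and 81.0, 92.2, 135 and 82.8 in Yaa 1 to 4. The groups were far apart, and the lowest Yaa array stood above the highest wild-type array by a wide margin. The deposited signals, with no scaling between arrays, were 3.06, 2.40, 3.67 and 3.95 in wild type and 85.5, 104, 85.5 and 74.1 in Yaa. Yaa 3 was thus highest only after scaling, and Yaa 2 was high on both scales.

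Probe set 1426125_a_at had signals of 39.9, 50.01, 48.1 and 55.8 in wild type and 51.3, 50.04, 64.3 and 78.7 in Yaa. Probe set 1437537_at had 132, 113, 106 and 112 in wild type and 102, 114, 216 and 122 in Yaa. In both the groups overlapped, and in the second only Yaa 3 lay above all wild-type arrays. In the deposited values that array stood at 140 and wild type 2 at 146, so its lead came with the scaling.

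**Figure D1:**
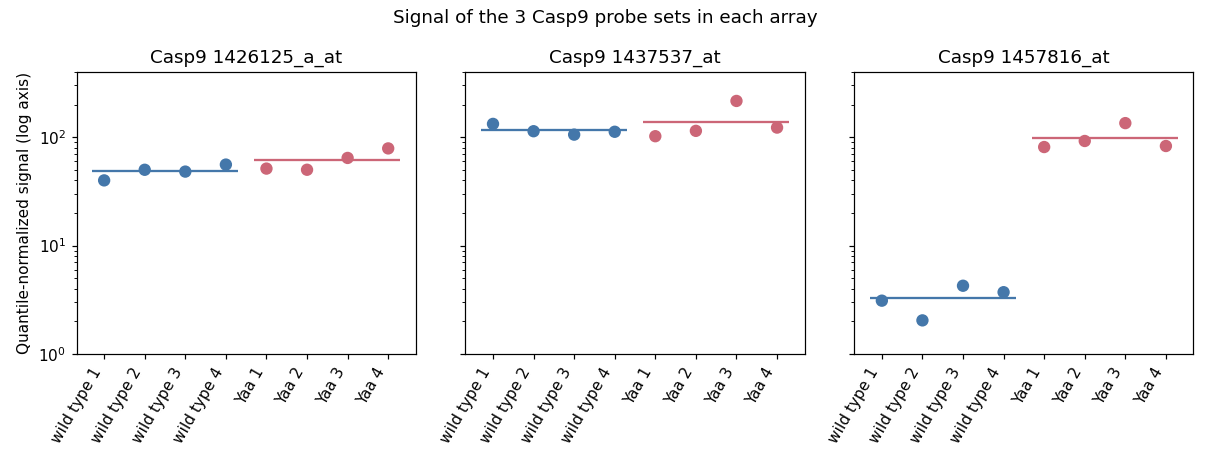
Signal of each Casp9 probe set in each array after quantile normalization, on a log axis, with wild type in blue, Yaa in red and horizontal lines at the group means. The groups overlap for 1426125_a_at and 1437537_at, while 1457816_at runs from 2.04 to 4.26 in wild type and from 81.0 to 135 in Yaa.

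The 4 wild-type arrays had a mean log2 signal of 4.27 ± 0.072 (SD) on 1457816_at. The 4 Yaa arrays had 6.81 ± 0.30 (SD), which makes the log2 difference 2.54 ± 0.18 (SE). For 1426125_a_at the difference was 0.25 ± 0.16 (SE) and for 1437537_at 0.18 ± 0.21 (SE). The latter turned to -0.032 without Yaa 3. The 1457816_at difference was 2.39 to 2.61 with any 1 array left out and 2.35 without Yaa 2 and Yaa 3 together. The added 16 sets a floor of 4 on the log2 scale, and with 64 added the difference was 1.25.

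The gap between 1457816_at and the mean of the other Casp9 probe sets was taken within each array. Such a gap takes out an array's overall brightness only where signals lie well above the added constant. In wild type 1457816_at lay at 4.17 to 4.34 on the log2 scale, just above the floor, so brightness does not cancel there. The gap also contains the probe set by which Casp9 was chosen, so it is a description and not a separate check. On the log2 scale this gap averaged -2.25 ± 0.098 (SD) over the 4 wild-type arrays and 0.07 ± 0.19 (SD) over the 4 Yaa arrays. It was -2.25, -2.36, -2.12 and -2.28 in wild type 1 to 4 and 0.12, 0.22, 0.14 and -0.21 in Yaa 1 to 4. The change of the gap between the groups was 2.32, and it was 2.27 to 2.42 with any 1 array left out. All 4 Yaa arrays were thus alike in this measure, Yaa 3 included.

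1457816_at passed the filter only through the Yaa arrays. Its mean log2 signal over all 8 arrays was 5.54, just above the filter level of 5.38. Over the wild-type arrays alone it was 4.27, and without any 1 Yaa array it fell below the level, for example at 5.29 without Yaa 3. A probe set near the floor in one group and past the filter had to differ between the groups.

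Across the table, limma listed 1 of 22518 tested probe sets, or 0.00444%, as higher in Yaa with an adjusted p under 0.05 (Benjamini-Hochberg over all of them). It was 1457816_at, the call that led to the choice of Casp9. None was listed as lower. At an unadjusted p under 0.05 limma listed 1066 probe sets, or 4.73%, of which 2.97% of all were higher and 1.76% lower in Yaa. In 924, or 4.1%, the groups did not overlap, 2.43% with Yaa higher and 1.67% with Yaa lower.

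The step from near 0 to a clear signal was uncommon on this array. Of the 45037 probe sets, 2768, or 6.15%, had a deposited signal under 5 in all wild-type arrays. Among these, 1457816_at was the 1 probe set above 50 in all Yaa arrays, and 0 showed the reverse, under 5 in all Yaa arrays and above 50 in all wild-type arrays. The limits of 5 and 50 were chosen after the Casp9 values were seen, so this is a description.

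The disagreement among Casp9 probe sets was also set beside that in other genes. For each of the 4966 genes with at least 2 tested probe sets, the range was taken from the lowest to the highest log2 difference among them, with a median of 0.20. The range for Casp9 was 2.36, which follows from the choice of the gene by 1457816_at and from the added 16, since with 64 added that probe set's difference was 1.25. The place of Casp9 among the genes is therefore not read as a result. Ranges above 2 were also measured for Pdxdc1 at 3.15, H2-D1 at 2.44, Ighm at 2.43 and Zfp24 at 2.39, and in each of those 4 genes probe sets pointed in opposite directions. All 3 Casp9 values lay above 0, but that of 1437537_at fell below 0 without Yaa 3 and with the values as deposited. The range was 0.44 for Xiap, 0.29 for Apaf1, 0.055 for Cycs and 0.047 for Diablo.

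**Figure D2:**
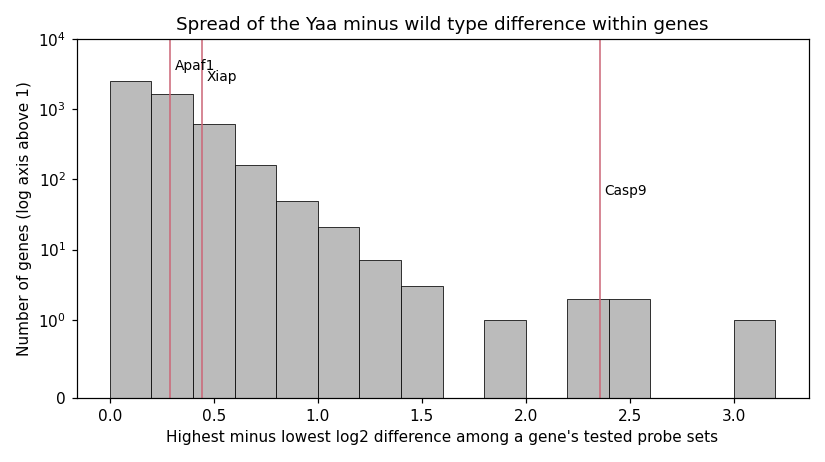
Number of genes (log axis above 1) by the range of log2 differences, Yaa minus wild type, among their tested probe sets, for the 4966 genes with at least 2. Red lines mark Apaf1 at 0.29, Xiap at 0.44 and Casp9 at 2.36, a value that rests on the probe set by which Casp9 was chosen.

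Apaf1, the scaffold of the apoptosome, passed the test on neither of its probe sets, and their means pointed in opposite directions. Its probe set 1452870_at had signals of 320, 290, 227 and 249.4 in wild type and 272, 159, 319 and 232 in Yaa. The groups overlapped, with Yaa 2 lowest. The log2 difference was -0.16 ± 0.21 (SE; limma adjusted p = 0.997) and became 0.016 without Yaa 2. Probe set 1450223_at had 97.6, 74.2, 59.7 and 61.9 in wild type and 88.8, 53.1, 88.1 and 97.6 in Yaa. Its difference of 0.13 ± 0.20 (SE; limma adjusted p = 0.997) became -0.063 with the values as deposited. After scaling, Yaa 2 was the lowest array in both. In the deposited signals of 1450223_at Yaa 3 was lowest, at 56.4, with Yaa 2 at 60.2.

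Cycs, whose product triggers the assembly, was bright on 3 probe sets and slightly higher in the Yaa means of each. 1456071_a_at had signals of 3840, 3786, 3308 and 3445 in wild type and 3959, 3677, 4205 and 4013 in Yaa. After scaling, 3 of the Yaa arrays lay above every wild-type array and Yaa 2 did not. In the deposited signals wild type 2, at 4511, lay above every Yaa array. The log2 difference was 0.14 ± 0.089 (SE; limma adjusted p = 0.997). For 1422483_a_at it was 0.09 ± 0.12 (SE) and for 1422484_at 0.15 ± 0.12 (SE), neither past the test (limma adjusted p = 0.997 each). With the values as deposited these 2 turned to -0.070 and -0.067, a scaling that moved the median of all tested probe sets to -0.20. The fourth, 1445484_at, was below the filter at signals of 7.43 to 18.1. Cycs is known to have many processed pseudogenes in mammalian genomes, so a probe set may also bind related transcripts.

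Hccs, the enzyme that attaches haem to cytochrome c, is among the X genes copied onto the Yaa chromosome. Its probe set 1420890_at had signals of 432, 428, 482 and 526 in wild type and 971, 1151, 724 and 1026 in Yaa, with no overlap after scaling. In the deposited signals Yaa 3, at 514, lay within the wild-type range of 436 to 551. The log2 difference was 1.01 ± 0.16 (SE; limma adjusted p = 0.174), and its other probe set had 1.05 ± 0.12 (SE; limma adjusted p = 0.055). Hccs passed limma's test in 2 alternatives, one that gave each array a weight and one that left out Yaa 2 and Yaa 3. Cycs passed in neither.

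Xiap, the inhibitor of caspase-9, lies on the X chromosome outside the copied segment. Its brightest probe set, 1437533_at, had signals of 823, 822, 902 and 883 in wild type and 735, 886, 652 and 705 in Yaa. Of the Yaa arrays 3 lay below every wild-type array, and Yaa 2 lay among them. The log2 difference was -0.21 ± 0.12 (SE; limma adjusted p = 0.997). For 1450232_at it was 0.24 ± 0.20 (SE) and for 1456088_at -0.00040 ± 0.14 (SE), neither past the test (limma adjusted p = 0.997 and 1). The Xiap probe sets thus pointed both ways. The other 4 were below the filter, with signals from 9.54 to 32.4 in all arrays.

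Diablo, which frees caspases from Xiap, had lower Yaa means on both of its probe sets. 1417683_at had signals of 477, 426, 432 and 399 in wild type and 346, 327, 396 and 307 in Yaa. The groups did not overlap, but only by a small margin, between wild type 4 and Yaa 3. The log2 difference was -0.32 ± 0.13 (SE; limma unadjusted p = 0.0314, adjusted p = 0.997) and ran from -0.39 to -0.27 with any 1 array left out. 1425768_at had 55.4, 87.0, 91.6 and 114 in wild type and 71.4, 74.6, 60.3 and 63.5 in Yaa, a difference of -0.28 ± 0.19 (SE; limma adjusted p = 0.997). Here the groups overlapped, since wild type 1 was the lowest of all 8.

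**Figure D3:**
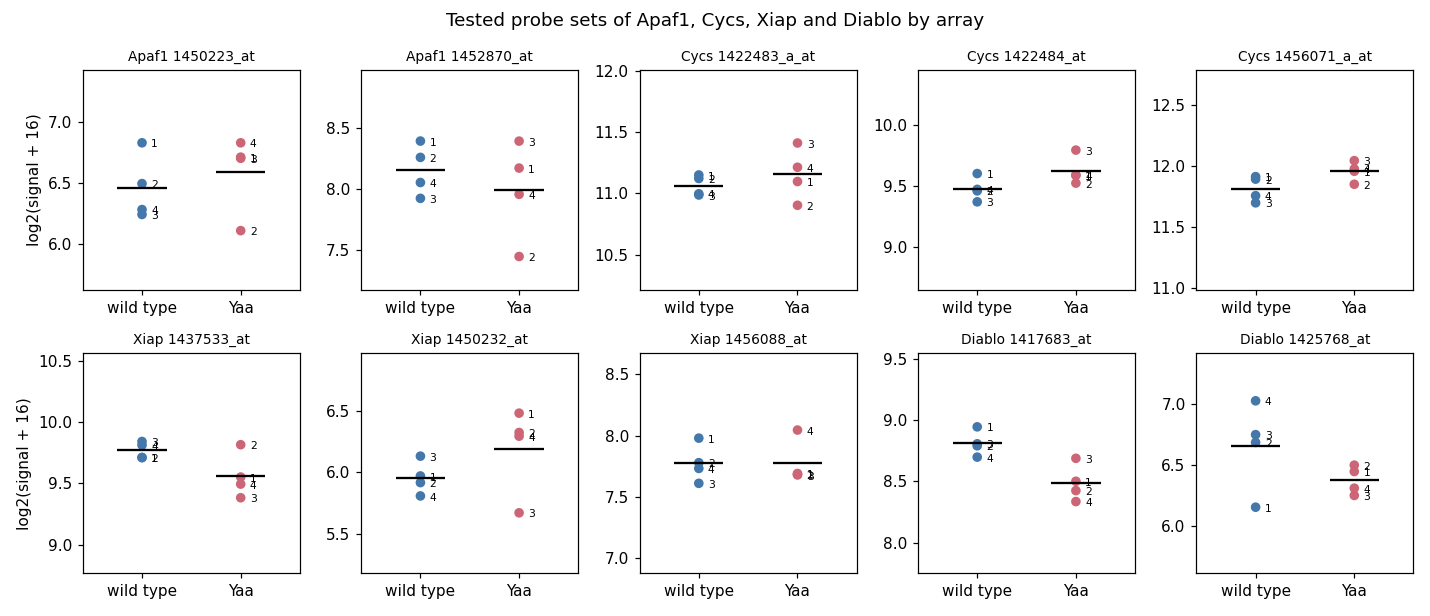
Log2(signal + 16) in each array for the 10 tested probe sets of Apaf1, Cycs, Xiap and Diablo, with wild type in blue, Yaa in red, replicate numbers beside the points and black lines at the group means; every vertical axis spans the same log2 distance. The groups overlap in all panels but that of Diablo 1417683_at.

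Of the 10 tested partner probe sets 5 had a higher and 5 a lower mean in Yaa, with differences from -0.32 to 0.24. limma called 0 of them at an adjusted p under 0.05, beside 0.00444% of all tested probe sets. It listed 1, Diablo 1417683_at, at an unadjusted p under 0.05, beside 4.73% of all tested probe sets. The same probe set was the 1 of 10 whose groups did not overlap, beside 4.1% of all tested probe sets, and beside 1.67% in that direction. A count of 1 in 10 is too small to read against that background. The median difference was 0.05 over the 10 and -0.01 over all tested probe sets. The SE of these differences was 0.09 to 0.21 with 4 arrays a group, which limits what the test could detect.

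**Figure D4:**
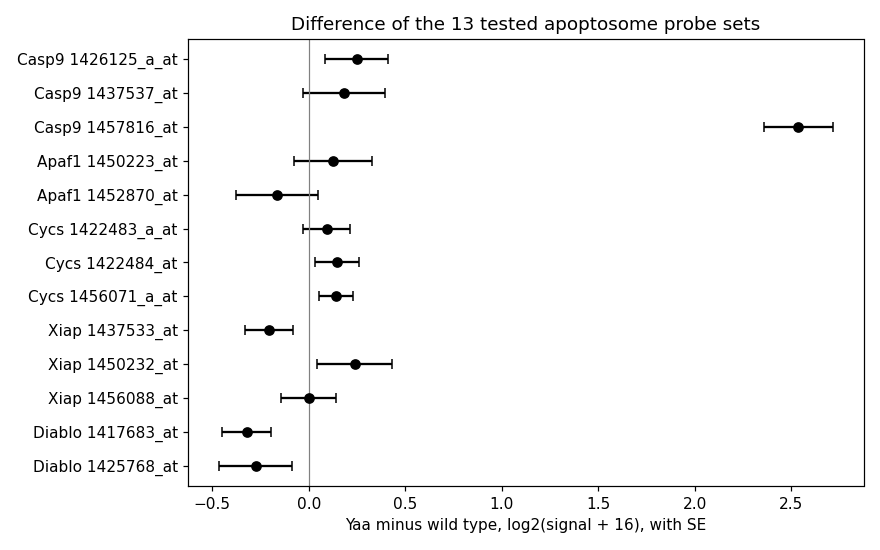
Difference between Yaa and wild type on the scale of log2(signal + 16) for the 13 tested probe sets, with bars of 1 SE from limma. Casp9 1457816_at stands at 2.54, and the other 12 lie between -0.32 and 0.25.

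The wider pathway was read from 8 lists of 60 genes, of which 50 had a tested probe set, each gene represented by its brightest one. Over the 50 genes, 31 had a higher and 19 a lower mean in Yaa, with a median difference of 0.05, where the median over all 10340 tested genes was -0.02, with 45.8% higher and 54.2% lower. limma called 0 of the 50 at an adjusted p under 0.05, as it called 0 of all 10340 genes represented in this way (502 at an unadjusted p under 0.05), since 1457816_at is not the brightest probe set of Casp9. At an unadjusted p under 0.05 it listed 7 of the 50, or 14.0%, beside 4.85% of all tested genes. After scaling, the groups did not overlap in 4 of the 50, beside 462, or 4.47%, of all tested genes. These were Hccs, Naip5, Hspb1 and Cdkn1a, and in the deposited signals of these brightest probe sets the groups overlapped in each of them. With the values as deposited, where the median of all tested probe sets was -0.20, the list medians of the other caspases, the Apaf1 regulators, the caspase substrates and the death receptor branch turned to -0.12, -0.037, -0.15 and -0.051, each above that median.

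Downstream of caspase-9, Casp6, an effector caspase that cleaves nuclear lamins, had a log2 difference of -0.20 ± 0.22 (SE) on its brighter probe set and 0.17 ± 0.18 (SE) on the other, and neither passed (limma adjusted p = 0.997 each). The first value became 0.0045 without Yaa 2. Among the caspase substrates of the execution phase, 7 of 10 had higher and 3 lower means, with a median of 0.03 that ran from -0.0070 without Yaa 1 to 0.13 without Yaa 3. Lmnb1, of the nuclear lamina, had 0.41 ± 0.16 (SE) on its brighter probe set and -0.07 ± 0.26 (SE) on the other, and the channel protein gene Panx1 had 0.47 ± 0.20 (SE). None of the 3 passed (limma adjusted p = 0.997 each). Parp1, the DNA repair enzyme cut by effector caspases, had 0.09 ± 0.12 (SE) on its brightest probe set and -0.24 to -0.13 on the other 3. Of the other caspases, 3 of 5 tested had higher means, with a median of 0.10 that turned to -0.0185 without Yaa 2. Among them were Casp4, an inflammatory caspase, at 0.58 ± 0.24 (SE) and Casp14 at 0.53 ± 0.27 (SE), again with no call (limma adjusted p = 0.997 each).

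Among mitochondrial factors and inhibitors of the inhibitors, 3 of 6 had higher means. Apart from Hccs, the differences ran from -0.17 for Aifm1 to 0.19 for Xaf1, which binds Xiap. The other inhibitors of apoptosis, relatives of Xiap, had 3 of 7 higher. Naip5, a sensor subunit for bacterial flagellin, had 0.52 ± 0.14 (SE; limma adjusted p = 0.744), with signals of 69.1 to 81.1 in wild type and 97.6 to 142 in Yaa. The Naip genes are close paralogs, so probe sets may bind more than one of them. Birc6, a very large ubiquitin ligase of the family, had 0.17 ± 0.16 (SE; limma adjusted p = 0.997) on its brightest probe set and -0.34 to 0.48 over its 6. Birc5, which acts in cell division, had -0.37 ± 0.39 (SE; limma adjusted p = 0.997). 

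Of genes reported to act on Apaf1, 5 of 6 tested had higher means, with a median of 0.10. The small heat shock protein gene Hspb1 had signals of 75.9, 69.6, 53.5 and 54.7 in wild type and 108, 77.3, 182 and 176 in Yaa, without overlap after scaling. In the deposited signals Yaa 2, at 87.5, lay below wild type 2, at 88.7. The log2 difference of Hspb1 was 0.88 ± 0.25 (SE; limma adjusted p = 0.807). Anp32a had -0.23 ± 0.12 (SE; limma adjusted p = 0.997) on its brightest probe set and -0.15 and 0.05 on the others. Aven, an Apaf1 inhibitor, had 0.04 ± 0.15 (SE).

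The death receptor branch, which activates effector caspases without the apoptosome, had 4 of 7 higher means and a median of 0.16, which turned to -0.11 without Yaa 3. Fas had 0.43 ± 0.26 (SE) and Tnfrsf1a 0.29 ± 0.20 (SE), with no call (limma adjusted p = 0.997 each). Genes of the p53 response, of which Apaf1 is a known target, had 6 of 8 higher means and a median of 0.21. Cdkn1a, the cell cycle inhibitor, had signals of 81.1, 117, 123 and 118 in wild type and 193, 284, 273 and 160 in Yaa. Its log2 difference was 0.93 ± 0.21 (SE; limma adjusted p = 0.553). The other Cdkn1a probe set had 0.79 ± 0.19 (SE; limma adjusted p = 0.625). Its groups did not overlap in the deposited signals either, at 18.2 to 39.9 in wild type and 48.2 to 70.6 in Yaa. Bbc3, a death-promoting relative of Bcl2, had 0.43 ± 0.27 (SE; limma adjusted p = 0.997).

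**Figure D5:**
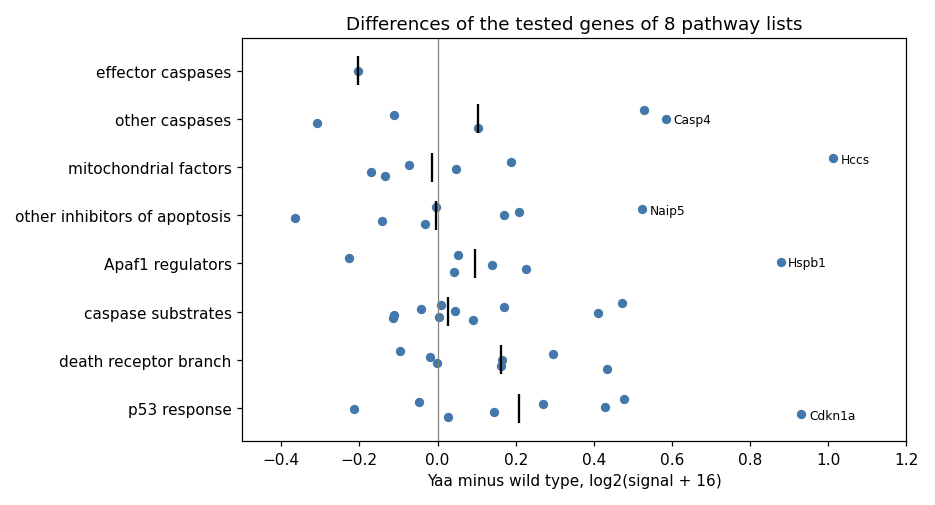
Log2 difference, Yaa minus wild type, of each of the 50 tested genes in 8 pathway lists (points), with the list median as a black line. Most genes lie within 0.5 of 0, and Hccs at 1.01, Cdkn1a at 0.93 and Hspb1 at 0.88 lie farthest to the right.

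The tested genes nearest to Casp9 on chromosome 4 had differences on both sides of 0. In the GRCm38.p6 gene order Dnajc16 comes just before it and Cela2a, a pancreatic protease gene, just after, overlapping its end. The 1 Cela2a probe set was below the filter, with signals of 14.5 to 43.4 in wild type and 10.96 to 27.1 in Yaa. Where this probe set and those of Casp9 lie in the transcripts was not tested. Dnajc16 had a log2 difference of -0.26 ± 0.15 (SE; limma adjusted p = 0.997). Over the 5 nearest tested genes on each side, 5 were higher and 5 lower, with a median of 0.01, and limma called 0 and listed 2, Epha2 and Efhd2, at an unadjusted p under 0.05, beside 4.85% of all tested genes. Only Dnajc16 was directly beside Casp9, and the others were from 5 (Efhd2) to 89 (Vps13d) genes away. On the side of Dnajc16, Plekhm2 had 0.10, Spen 0.06, Zbtb17 -0.06 and Epha2 0.61. On the other side, Efhd2 had -1.18 ± 0.50 (SE), Tmem51 0.64, Prdm2 -0.29, Pramel12 0.36 and Vps13d -0.04. The Efhd2 value leans on Yaa 2, at 8.12 log2, while the other Yaa arrays were at 10.19 to 10.80 and wild type at 10.72 to 11.18.

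By Pearson correlation over the 8 arrays, the probe sets most like 1457816_at were those of Map3k12 (0.991), Msl3 (0.969), Rab31 (0.966), Trappc2 (0.965), Hdc (0.962), Hk2 (0.959), Rab9 (0.959), Cd14 (0.956), Hccs (0.953) and Hnrnpa2b1 (0.951). In each of the 10 the lowest Yaa array lay above the highest wild-type array after scaling. In the deposited signals the groups overlapped for Trappc2, Rab9, Hccs and Hnrnpa2b1. Msl3, Trappc2, Rab9 and Hccs belong to the X segment copied onto the Yaa chromosome. Since 1457816_at separates the groups, any probe set that does so ranks high. Their log2 differences ran from 0.20 for Hnrnpa2b1 to 2.44 for Cd14.

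After scaling, 1457816_at had a log2 signal of 7.24 in Yaa 3 against 6.60 to 6.76 elsewhere in that group, a lead absent from the deposited signals, where Yaa 2 was highest. By correlation of deviations from the group means over the 8 arrays, the closest were Oaz2 (0.987), Asah2 (0.982), Pcolce2 (0.981), Fcgr1 (0.979) and Adam22 (0.978). All 5 were also highest in Yaa 3 among the Yaa arrays, so these correlations rest on that array and its scaling, and none of the 5 passed limma's test between the groups (adjusted p 0.997 to 1).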

How the data were processed

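Total RNA of 8 samples was measured on Affymetrix mouse arrays, 1 array per sample. The authors deposited MAS5 signals, a linear intensity for each probe set (the submitters' processing notes name the tool). Its version, scaling target and filters were not stated there. The mean signal of an array, trimmed by 2% at each end, ran from 106 to 192, so all arrays were quantile normalized. Gene symbols came from the platform annotation and were brought to GRCm38.p6 by Entrez ID (34754 of 34958 matched).

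Yaa and wild type were compared on log2(signal + 16) with limma (version 3.58.1, R 4.3.3; lmFit and eBayes with trend), after 64 controls were removed and a filter at the median brightness was applied, with Benjamini-Hochberg adjustment over 22518 and a threshold of 0.05. The procedure was tested on simulated data. The number of arrays limits the precision. The members, lists and tests were chosen with earlier results of these data known.

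Named are all member probe sets, the 2 genes of smallest p in each list with others of known role chosen after their values were seen, the 5 nearest tested genes on each side of Casp9, and the 10 and 5 probe sets most correlated with 1457816_at. The design text says that RNA of each animal was extracted separately, apart from the pool in Yaa 3, so the spread in the Yaa group is not purely between single animals. No 2 arrays held identical values. Alternatives were other pseudocounts, filters, scalings, variance models, array weights, a replicate block, other thresholds and left-out arrays.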

Additional observations from a re-analysis of the deposited data

Results flagged for a closer look

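In groups of 4, a gap test (Dixon) was run on 76 group and value pairs, and 6 stood out, where chance gives about 1 in 20. Xiap 1456088_at was at 8.05 log2 in Yaa 4, with the nearest Yaa array at 7.69. The mean of the p53 response list was at 7.48 in Yaa 1, with the nearest at 7.73. In Yaa 3 the B cell marker mean was at 5.52 (nearest 10.15), the plasma cell marker mean at 7.03 (nearest 9.35) and the mean of the 2 tested pancreatic acinar markers of 7 at 8.09 (nearest 6.64). The monocyte and macrophage mean was at 9.03 in wild type 1, with the nearest wild-type array at 9.13. None of the Casp9, Apaf1, Cycs or Diablo probe sets stood out in this test.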

How the results depend on the processing

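The difference of Casp9 1457816_at stayed above 0 in all 21 alternatives in which it could be fitted. The probe set was chosen by this difference and passes the filter only through the Yaa arrays, so this count is no support. The difference was 2.39 to 2.61 with 1 array left out, and with log2(signal + 64) it moved to 1.25, and the change of the gap between Casp9 probe sets to 1.11. It could not be fitted with log2(signal + 1), with a stricter filter on dim probe sets, or when the filter was applied again without a Yaa array, because it then lay below the filter.

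limma's count of called probe sets was 1, and 0 with log2(signal + 1), with that stricter filter and with the replicate block. It was 143 with array weights (102 higher, 41 lower), 103 without Yaa 2 and Yaa 3 together and 10 at an adjusted p under 0.10. With 1 array left out it ran from 1 to 31, highest without Yaa 2, 11 without Yaa 4 and 2 without Yaa 1, and with the filter applied again from 0 to 30. At an unadjusted p under 0.05 the counts of 0 compare with 1032, 485 and 731 listed probe sets. Of the partner and pathway genes limma called 0, and 1, Hccs, with array weights and without Yaa 2 and Yaa 3. The replicate numbers of the labels did not pair the samples: deviations of same-numbered arrays correlated at -0.0053, 0.016, -0.37 and -0.13. In this balanced design a block cannot change a group difference, only its error. Signs of small partner differences turned in some settings, as with Xiap 1456088_at in 13 of 27.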
